A study of Zea mays with 168 samples.

Results

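Maize inbred lines 250 and 301 and the reciprocal hybrids between them form a family of 4 genotypes within a larger crossing scheme. The labels write 250x250 and 301x301 for the lines and 250x301 and 301x250 for the hybrids. Samples were taken by the genotype in their titles, which gave 51 samples, or 31.1% of all samples of the series, once nearly identical slides were counted once (52 as labelled). There were 16 samples of 250x250, 19 of 301x301, 8 of 250x301 and 8 of 301x250. All 4 genotypes shared 1 tissue, age and culture: primary roots 3.5 days after germination, grown in water at 26 °C and 60% humidity with 16 hours of light and 8 hours of darkness. No treatment or transgene is named. Each sample was polyadenylated RNA from a pool of about 20 roots, labelled with Cy3 or Cy5 and hybridised to a cDNA microarray beside a second sample. Pooling hides the spread between single roots, and no label says whether pools of a genotype came from separate seed lots. Which parent of a hybrid was the seed parent is not stated in the labels, so the order of the names is kept without a reading.

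Hybrid maize outgrows its inbred parents, a phenomenon called heterosis that is already visible in the young primary root, the first root to leave the seed. A transcript is additive when a hybrid's level equals the mean of both parents and non-additive when it departs from that mean, up to levels beyond those of both parents. Reciprocal hybrids have the same nuclear alleles but differ in the parent that supplied the egg, its organelles and the larger share of the endosperm. A difference between them therefore bears on parent-of-origin effects.

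On 14 slides both channels carried a member of the family, 28 samples in all, with 5 of 250x250, 7 of 301x301 and 8 of each hybrid. Their within-slide log2 ratios were used for all main comparisons, which is the same as treating the slide as a block. No slide carried both lines side by side, so the line difference was estimated through the hybrids. The remaining 24 labelled samples, all of the lines, shared slides with genotypes outside the family. On the 14 slides the dye of the title and that of the label field did not conflict. Of the 66 other slides used here, 9 had opposite dyes in these fields, with 5 of the line samples on them, and 2 had 1 dye named for both channels in 1 of the fields. The title was followed where it named both dyes, and whether channels were exchanged on those slides was not tested. On slide 58 the values deposited for Cy3, labelled 301x250, had a best rank correlation of 0.904 with the scanner intensities of that channel. With the scanner intensities of the other channel it was 0.944. For the other 27 of 28 channels the deposited values were closest to the scanner intensities of their own channel (at least 0.969). The array held 12160 spots, of which 11838 spots of 11431 identifiers were tested. Spots without identifier (190) and the spots of 11 identifiers printed 12 times each were left out. The dye effect of the same fit had 0 called spots and 1803 at an unadjusted p under 0.05 (15.2%).

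Identity was limited. The files name spots by expressed sequence tag identifiers without a description, and the reference table gives a gene symbol for 8 of them, on 10 spots. None of 13 word lists covering ribosomal proteins, histones, cytoskeleton, cell wall, water channels, oxidative stress, glycolysis, translation, heat shock, ubiquitin, green tissue, kernel and root markers matched any of these symbols or synonyms (0 identifiers each). The labelled tissue could therefore not be checked against marker genes, and no functional group could be described. Identifiers are listed beside the scanner intensities and were assigned to the deposited levels by row order. The scanner intensities matched these levels only after their rows were rearranged within the array, and the identifiers were not rearranged with them. No result with identifiers rearranged in that way is given here. The unnamed spots, and the limit for bright spots drawn from them, rest on this assignment too. Levels at the 2 spots of an identifier printed on 2 spots had a rank correlation of only 0.158 over 397 identifiers. An estimate therefore belongs to a spot, and the identifier of that spot, or its lack of one, may be wrong. The 12-fold printed identifiers varied less, with a mean SD of 0.517 over their spots against 1.379 over all spots on the log2 scale.

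Signal strength is described here and not tested. The ratio of the median spot to the median of unnamed spots was 3.195 in 250x301 (median of 8 samples, 2.476 to 6.32). In 301x250 it was 2.919 (1.428 to 3.928). By this measure the hybrids ranked 2 and 3 among 16 genotypes, below 301x005 with 3.638, and the samples of all 3 overlapped. By the ratio of medians, the lines lay at 2.662 for 301x301 and 2.083 for 250x250 over all their samples. On the 14 family slides alone they lay at 3.468 (1.561 to 5.453) and 2.782 (1.513 to 4.497). The median of 301x301 was there above that of either hybrid, but the ranges overlapped. Where 250x301 and 301x301 shared a slide, the hybrid was the brighter on slide 31 (2.836 against 2.371) and slide 916 (6.32 against 5.453). On slide 57 the line was (3.468 against 3.329). Beside 301x250, on slides 39, 41, 58 and 924, 301x301 was the brighter each time.

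**Figure D1:**
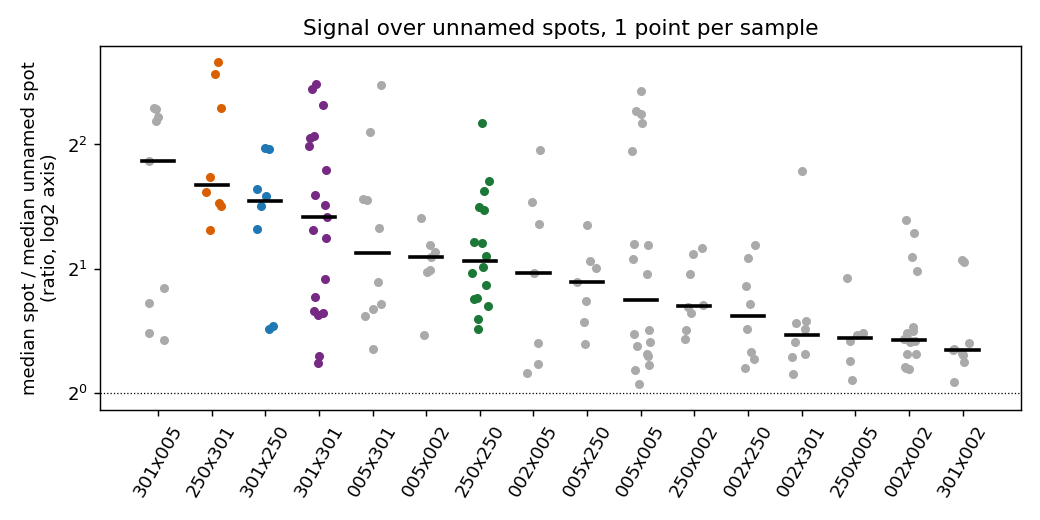
Median spot over median unnamed spot in each sample, on a log2 axis, for 16 genotypes ordered by their median (black bars). Each point is 1 sample and the family is coloured; 250x301 and 301x250 rank 2 and 3 with medians of 3.195 and 2.919, and their samples overlap those of most other genotypes.

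The first question was whether transcripts of each hybrid depart from the mean of its lines. In pooled roots, fewer cells of a type and less RNA per cell cannot be told apart. No spot passed an adjusted p of 0.05 in 250x301 (0 of 11838 spots, limma with Benjamini-Hochberg adjustment, background 0%, lowest adjusted p 0.611). At an unadjusted p under 0.05 there were 948 spots, or 8.01%, of which 584 were higher and 364 lower in 250x301. This count moved with single slides: it was 540 without slide 37, 583 without slide 916, 619 without slide 59, 1448 without slide 38 and 1478 without slide 57. Without slide 917 the split turned to 282 higher and 374 lower, and within slides 31 to 61 only 21.8% of such spots were higher. For 301x250 the count was also 0 of 11838, with 354 spots at an unadjusted p under 0.05 (2.99%) and a lowest adjusted limma p of 0.9995. The mean of both hybrids against the mean of both lines gave 0 called spots and 417 at an unadjusted p under 0.05 (3.52%), with a lowest adjusted limma p of 0.959. Without slide 917 that count was 249, and without slide 38, 37 or 57 it was 634, 677 or 783. The median standard error of a spot was 0.11 for 250x301, 0.12 for 301x250 and 0.09 for both hybrids together, on the log2 scale. Estimates beyond a 2-fold difference from the mean of the lines were rare, at 1 spot in 250x301 and 5 spots in 301x250.

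Single spots show what lay behind these counts. None of the spots named in the following was called; they are those of smallest p in each direction. AI944125 was 0.41 ± 0.09 (log2 estimate ± SE) above the mean of the lines in 250x301. On the slides that paired 250x301 with 250x250 its log2 ratio of hybrid over line was 0.33, 0.62 and 0.92, and on those that paired it with 301x301 it was 0.19, 0.08 and 0.14. All 6 ratios were above 0, and those against 250x250 were the larger. AW017927 (0.37 ± 0.09) and AI944077 (0.33 ± 0.08) were the next 2 upward spots. AW017927 had ratios of 0.34, 0.74 and 0.76 over 250x250 but 0.13, -0.02 and 0.14 over 301x301. Its excess over the mean of the lines was thus mostly an excess over 1 line.

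AI622236 was lower in 250x301 than the mean of the lines, by a log2 estimate of -0.48 ± 0.11. Its log2 ratios of hybrid over 250x250 were -0.37, -1.18 and -0.89, while those over 301x301 were -0.38, 0.04 and -0.19. The hybrid stayed below 250x250 on every slide but not below 301x301. BM336484 (-0.40 ± 0.09) and AI691278 (-0.45 ± 0.11) had the next smallest p. BM336484 differed in sign over 301x301 between slides, with log2 ratios of 0.21, -0.24 and -0.69. The adjusted limma p was 0.611 for all 6 spots.

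Of the 6 spots of smallest p in 301x250, AI622084 and AI941534 depended on 1 slide. AI622084 had a log2 estimate of -0.74 ± 0.19 against the mean of the lines, and its ratios over 250x250 were -0.71 on slide 918 and -2.33 on slide 920. Without slide 920 the estimate was -0.34, a smaller departure. AI770775 (-0.55 ± 0.15) and AI691447 (-0.39 ± 0.10) were the other downward spots. AI770775 had ratios over 301x301 of -0.61, 0.07, -1.29 and -0.34, so 1 of 4 slides went the other way. Upward, AI734415 (0.30 ± 0.09), AI941534 (0.48 ± 0.15) and AI939807 (0.34 ± 0.11) came first. AI941534 had a ratio over 250x250 of 1.86 on slide 918 and 0.50 on slide 920, against -0.13, 0.00, 0.44 and 0.01 over 301x301 on slides 39, 41, 58 and 924. Without slide 918 its estimate was 0.29. The adjusted limma p was 0.9995 for each of these spots.

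For both hybrids together AI734415 (0.28 ± 0.07), AW331073 (0.27 ± 0.07) and AW400240 (0.24 ± 0.07) had the smallest p upward. BM074507 (-0.26 ± 0.07), AI691447 (-0.30 ± 0.08) and AI734391 (-0.39 ± 0.11) had it downward. BM074507 was below the line on all 12 slides that paired a hybrid with a line, from -0.04 to -0.52. Its median log2 level relative to the sample's median spot was 0.33 in 250x301 and -0.08 in 301x250. It was 0.18 in 250x250 and 0.23 in 301x301. The level in 250x301 was thus the higher although the ratios placed it lower. AW400240 was above 250x250 on 5 of 5 slides, from 0.29 to 0.70, but lay between -0.16 and 0.14 over 301x301 on 7 slides. All 6 had an adjusted limma p of 0.959.

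**Figure D2:**
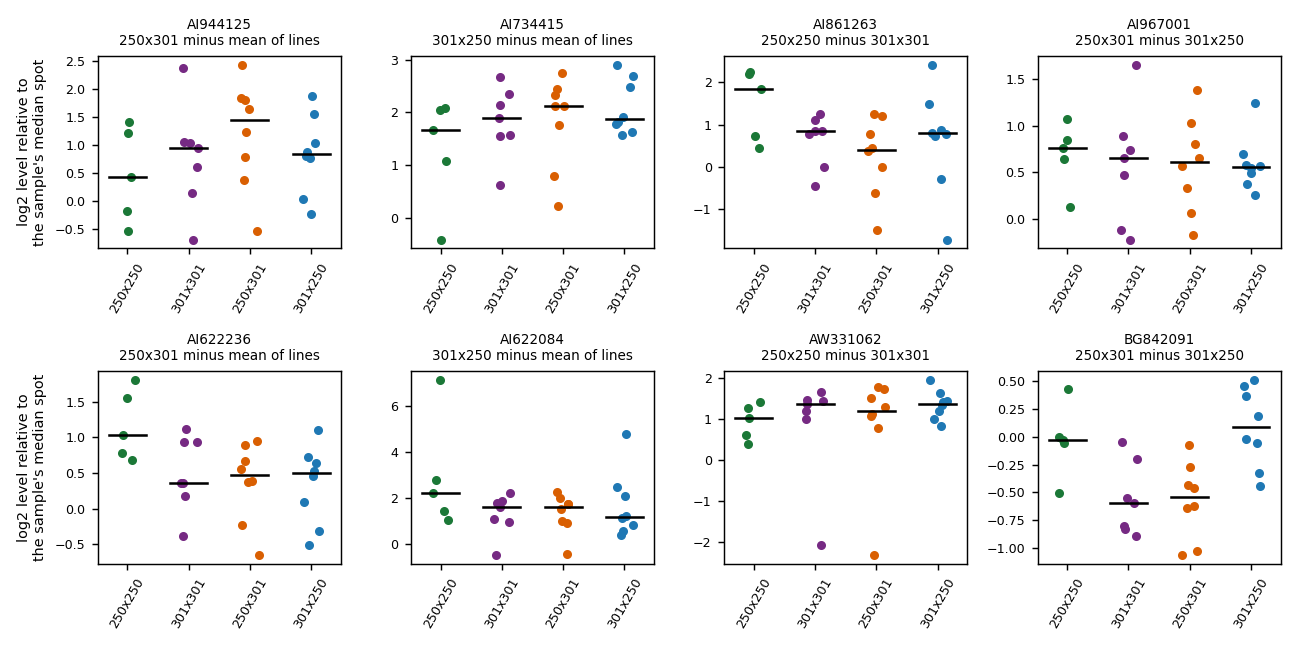
Log2 level relative to the sample's median spot for 8 spots, 1 point per sample on the 14 family slides (5 of 250x250, 7 of 301x301, 8 of each hybrid), with medians as bars. The spots are those of smallest p in each direction (higher above, lower below) of 4 comparisons, none was called, and every panel shows ranges that overlap between the genotypes compared.

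Levels outside the range of both lines were asked for next. No spot passed in either hybrid (0 called, both percentages 0, adjusted limma p of 1.00). At an unadjusted p under 0.05 there were 10 spots for 250x301 (0.0845%) and 22 for 301x250 (0.186%). The test asks for a difference from both lines at once, so these shares cannot be read against 0.05. Leaving out 1 slide in turn gave 5 (without slide 918) to 49 (without slide 57) for the first and 10 (without slide 924) to 51 (without slide 41) for the second.

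The position of each hybrid relative to each line separately was uneven. Between 250x301 and 250x250, 2797 spots (23.6%) had an unadjusted p under 0.05, 1737 higher and 1060 lower in the hybrid. Between 250x301 and 301x301 there were 200 (1.69%). For 301x250 the corresponding counts were 1065 against 250x250 (9%) and 1030 against 301x301 (8.7%). None of these 4 comparisons had a called spot, and the lowest adjusted limma p was 0.089 for 250x301 against 250x250. Without slide 58, whose Cy3 channel stood apart above, the count for 301x250 against 301x301 was 388, 189 higher and 199 lower, and without slide 57 or 37 it was 629 or 673. For 301x250 against 250x250 it was 653 without slide 917 and 656 without slide 920. For 250x301 against 250x250 it was 1722 without slide 59 and 1838 without slide 917, and against 301x301 it was 357 without slide 916 and 407 without slide 924. The 4 comparisons share samples, and the difference between their counts was not tested. With ratios centred on each slide's median the split of the first turned from 1737 higher and 1060 lower to 1279 higher and 1370 lower, and with loess to 891 higher and 1313 lower.

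**Figure D3:**
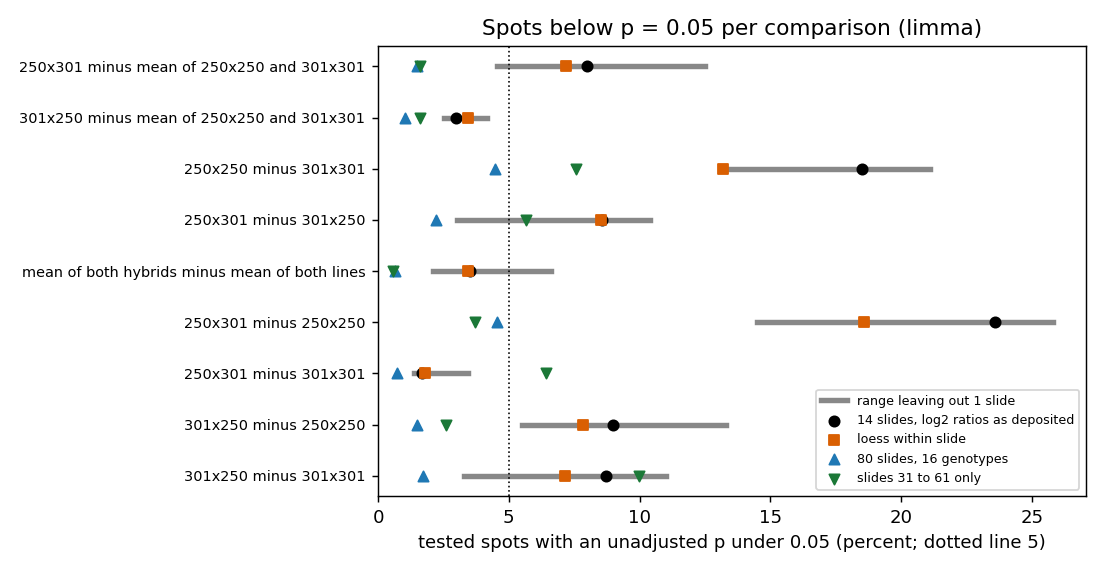
Share of tested spots with an unadjusted limma p under 0.05 (horizontal axis, percent) in 9 comparisons of genotypes. Black circles stand for the 14 family slides, grey bars for the range when 1 slide is left out, squares for loess, upward triangles for 80 slides with 16 genotypes and downward triangles for slides 31 to 61. The comparisons of 250x250 with 301x301 (18.5%) and with 250x301 (23.6%) lie farthest right with the 14 slides, and both drop below 5% with 80 slides.

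Line against line, 0 of 11838 spots were called between 250x250 and 301x301, and 2192 (18.5%) had an unadjusted p under 0.05. Of these, 821 were higher and 1371 lower in 250x250. The lowest adjusted limma p was 0.105, and the median standard error was 0.18. An estimate beyond a 2-fold difference was found at 284 spots. Leaving out slide 924, which paired 301x250 with 301x301, brought 310 spots past the threshold, 259 higher and 51 lower in 250x250. No other single slide did so.

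AI861263 had the smallest p of this comparison, with a log2 estimate of 1.09 ± 0.18 higher in 250x250. Relative to the sample's median spot its log2 level in the 5 samples of 250x250 was 0.73, 0.44, 2.19, 2.24 and 1.84. In 301x301 it ran from -0.46 over a median of 0.84 to 1.26 in 7 samples. Of the 5 samples of 250x250, 3 lay above all of 301x301 and 2 within its range. The ratios of 301x250 over 301x301 were 0.77, 0.11, 1.27 and 0.67, all above 0. Those of 250x301 over 250x250 were -0.31, -0.45 and -1.79, all below 0. The other slides went both ways, with 301x250 over 250x250 at 0.15 and -1.10 and 250x301 over 301x301 at -0.30, 0.00 and 0.36.

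AI600503, among the brightest spots, was 2.40 ± 0.44 higher in 250x250. Its relative log2 level was 6.04, 5.57, 7.003, 7.85 and 6.65 in 250x250 and 2.16 to 6.65 with a median of 4.47 in 301x301. AI622159 was 1.83 ± 0.34 higher, with levels of 3.09, 1.92, 2.72, 3.42 and 3.00 in 250x250 and 0.12 to 2.72 with a median of 1.30 in 301x301. At both spots the lowest samples of 250x250 lay below the highest of 301x301, so the groups overlapped. The downward spots were AW331062 (-0.69 ± 0.15), AW066986 (-0.63 ± 0.14) and BM079907 (-0.58 ± 0.13). Their levels overlapped between the lines. For BM079907 the range was 0.79 to 2.14 in 250x250 and 0.28 to 1.84 in 301x301, with medians of 1.60 and 1.43, so that its level was the higher in 250x250 although its ratios placed it lower. The adjusted limma p was 0.105 for all 6.

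The line difference moved with the brightness of the spot. When the tested spots were ordered by mean level and split into 10 equal parts, the median estimate of 250x250 minus 301x301 fell from 0.09 in the dimmest part to -0.33 in the brightest. At an unadjusted p under 0.05, 2.2% of the dimmest part was higher and 0.929% lower in 250x250, against 11.5% higher and 45.6% lower in the brightest part. Over all spots the rank correlation between estimate and level was -0.34 (11838 spots that share the same slides). It was 0.40 for 250x301 minus 301x250, 0.33 for 250x301 against the mean of the lines and -0.22 for 301x250. After loess within each slide the split of the line difference changed from 821 higher and 1371 lower to 1083 higher and 482 lower, and after centring on the median to 1125 higher and 903 lower. Loess is a smooth curve of the log ratio on level that is subtracted.

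Calls were made when bright spots alone were tested. Among 1001 spots whose mean level lay above nearly all unnamed spots, 406 (40.6%) were called between the lines at an adjusted limma p under 0.05, 287 of them lower and the others higher in 250x250. In the same spots 359 were called between 250x301 and 250x250, 260 higher and 99 lower in 250x301. After loess both counts were 0, with 242 and 312 spots at an unadjusted p under 0.05. The print position moved with the estimates too. Columns within a print block accounted for 10.5% of the variance of the line difference over spots and print blocks for 4.93%. For 250x301 against the mean of the lines these shares were 13.3% and 8.16%. With loess, block medians and column medians removed, 0 spots were called and 1853 had an unadjusted p under 0.05 between the lines. The part of level and print position in the line difference was not tested beyond this.

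Line samples away from the 14 slides, 11 of 250x250 and 12 of 301x301 on 23 slides, gave an estimate from samples the family slides did not use. Ratios of the 66 other slides, with 14 genotypes in 1 fit, gave 0 called spots and 781 at an unadjusted p under 0.05 (6.6%), with a median standard error of 0.29. Over the 11838 spots this line difference had a Pearson correlation of -0.28 and a rank correlation of -0.29 with that of the family slides. An exchange of channels would turn a slide's ratio. The Pearson correlation was -0.24 without the 11 slides of unclear dye, -0.30 with the dyes of the label field and -0.33 with the ratios of the 9 slides of opposite dyes turned, so it was below 0 each time. Of the 2192 spots at an unadjusted p under 0.05 on the family slides, 654 (29.8%) had the same sign on the other slides, against 40.8% of all spots. With loess and print medians removed on both sides, the Pearson correlation was -0.22. The 2 sets of slides were also put in 1 fit, in which 0 spots differed in their line difference at an adjusted limma p under 0.05 (lowest 0.078) and 1388 (11.7%) did so unadjusted.

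At the spots named above, signs on the other slides were mixed. AI861263 was 0.20 ± 0.37 higher in 250x250 on the other slides and AI622159 0.22 ± 0.51, both within their error. AI600503 had the opposite sign there, at -1.28 ± 0.69. AW331062 (0.52 ± 0.28), AW066986 (0.32 ± 0.34) and BM079907 (0.48 ± 0.26) all had the opposite sign too, and none of these exceeded 2 standard errors.

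Channel levels of the same 23 unpaired samples, compared without their slide partners, gave another picture. By this fit 216 spots were called at an adjusted limma p under 0.05, 5 higher and 211 lower in 250x250, and 70.8% of them were among the bright spots. Of these 216, 191 had the same sign on the family slides, as had 60.0% of all tested spots, and 87 had that sign on the 66 other slides, which hold the same samples as ratios. The correlation with the family slides over all spots was 0.21 (Pearson). The median called spot stood at the 96.7th percentile of level. In the brightest of 10 equal parts the median line difference on the family slides was itself -0.33. The 60.0% of all spots is therefore no matched share for these bright spots, and a matched share is not given here. A comparison of levels leaves the slide's own signal in the difference, and slide and genotype cannot be told apart for these samples.

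**Figure D4:**
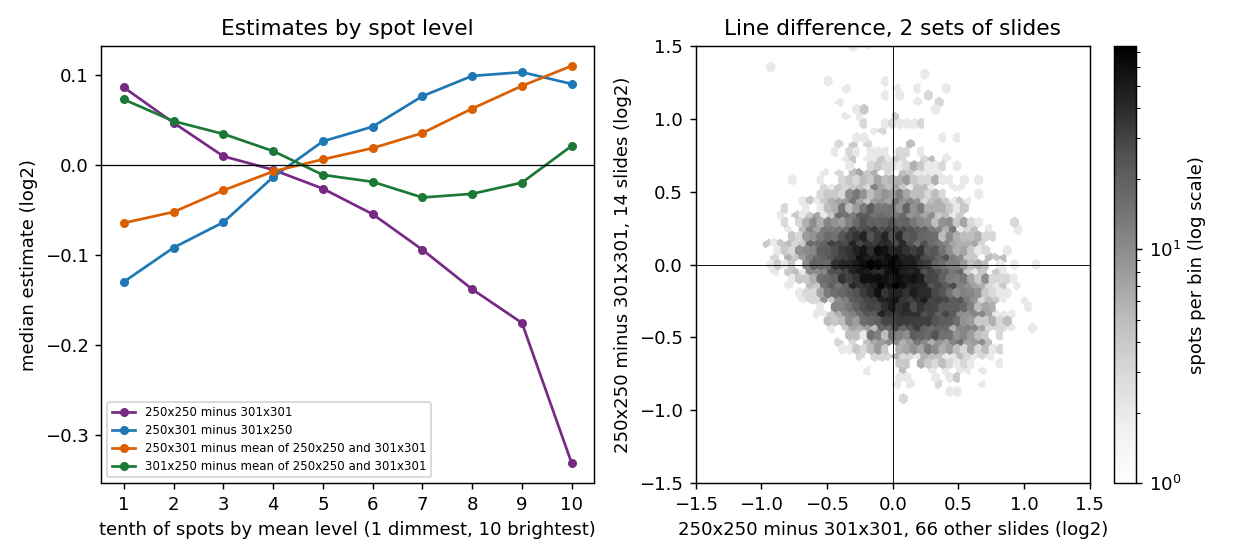
Left, median log2 estimate (vertical axis) in 10 equal parts of the tested spots ordered by mean level (horizontal axis, dimmest to brightest) for 4 comparisons; the line difference falls from 0.09 to -0.33. Right, the line difference of each spot on the 14 family slides (vertical, log2) against that on 66 other slides (horizontal, log2), shaded by the number of spots per bin, with 172 spots beyond the axes of 1.5; the cloud leans from upper left to lower right (Pearson correlation -0.28).

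Hybrid against reciprocal was the remaining comparison. No spot was called between 250x301 and 301x250 (0 of 11838, 0%), and 1012 had an unadjusted p under 0.05 (8.55%), 553 higher and 459 lower in 250x301. Without slide 37, 1 of the 2 slides that carried both hybrids, 359 spots had such a p, 176 higher and 183 lower. The lowest adjusted limma p was 0.581 and the median standard error 0.14. Only 3 spots had an estimate beyond a 2-fold difference. Slides 37 and 61 carried both hybrids, with swapped dyes, and their log2 ratios of 250x301 over 301x250 had a rank correlation of -0.28 over 11835 spots.

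AI967001 was 0.41 ± 0.10 higher in 250x301, with ratios of 0.37 and 0.35 on the slides that carried both hybrids. Its relative levels were -0.17 to 1.38 in 250x301 with a median of 0.61, and 0.25 to 1.24 in 301x250 with a median of 0.55, which overlapped fully. AW065415 (0.42 ± 0.11) and AI943624 (0.47 ± 0.13) followed, each above 0 on both slides. BG842091 was -0.49 ± 0.13 in 250x301 relative to 301x250, with direct ratios of -1.04 and -0.43. Its level ran from -1.06 to -0.07 with a median of -0.54 in 250x301 and from -0.44 to 0.51 with a median of 0.09 in 301x250, so the groups overlapped between -0.44 and -0.07. BE129910 (-0.35 ± 0.09) and AI396382 (-0.56 ± 0.15) were the other downward spots. The adjusted limma p was 0.581 for all 6.

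Repeated slides shared little. Among 14 pairs of slides with the same 2 genotypes, the rank correlation of the log2 ratios over spots, turned for swapped dyes, had a median of 0.04 for 5 pairs with the same dyes and 0.07 for 9 with swapped dyes. The highest was 0.43, for slides 38 and 59 with 250x301 and 250x250. The lowest was -0.35, for slides 57 and 916 with 250x301 and 301x301. Ratios of the 3 slides with 250x250 and 250x301 correlated at 0.43, 0.10 and 0.20, all above 0. Those of the 3 slides with 250x301 and 301x301 correlated at -0.18, 0.07 and -0.35. Slides with different genotype pairs reached larger correlations. Before any turn of sign, their ratios (Cy5 minus Cy3) correlated from -0.51 (slides 39 and 59) to 0.62 (slides 37 and 59). Slides 57 and 59, with 250x301 in opposite dyes, correlated at 0.57. A value such as 0.43 is therefore not particular to slides of the same genotypes. These values describe slides and carry no test.

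**Figure D5:**
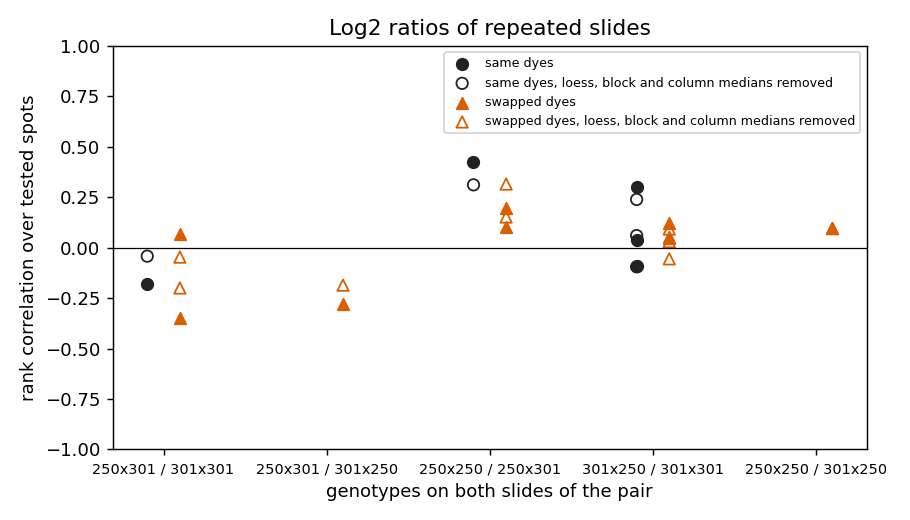
Rank correlation over tested spots (vertical axis) between log2 ratios of slides that carried the same 2 genotypes (horizontal axis), as circles for the same dyes and triangles for swapped dyes after the sign was turned; open symbols have loess, print-block and print-column medians removed. The 3 pairs with 250x250 and 250x301 lie above 0, the pair with both hybrids lies at -0.28, and the 5 pairs with the same dyes run from -0.18 to 0.43.

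Of the 10 spots with a gene symbol, 3 had an unadjusted p under 0.05 for 250x301 against the mean of the lines (background 8.01%), all higher. None had one for 301x250 (background 2.99%), 1 for the line difference (18.5%) and 2 for the reciprocal difference (8.55%). No symbol spot was called in the main fit, and the limit on identifiers given above holds for these spots too. The 3 spots higher in 250x301 were AI987507, AW257883 and AW400087, at level percentiles of 92.49, 90.34 and 91.16. In the brightest of 10 equal parts, 13.4% of all spots were higher and 1.44% lower in 250x301 than the mean of the lines. AW400087, for which RefSeq has the long noncoding RNA LOC100500995, was 0.33 ± 0.08 higher in 250x301 than the mean of the lines and -0.47 ± 0.14 in 250x250 relative to 301x301. The ratios of 250x301 over 250x250 were 0.42, 0.57 and 0.55 and those over 301x301 were 0.12, 0.21 and 0.14, all above 0. The reciprocal hybrid was 0.08 ± 0.09 above the mean of the lines. Its adjusted limma p was 0.611 against the mean of the lines and 0.112 between the lines.

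AI665898 is annotated as LOC100191184 with the synonym reticulon, a family of proteins that shape the tubules of the endoplasmic reticulum. Its 2 spots disagreed on the reciprocal difference, with 0.36 ± 0.16 at spot 1 and -0.14 ± 0.13 at spot 2. AI987507 (LOC542198) was 0.24 ± 0.10 and AW257883 (LOC100279628) 0.27 ± 0.12 above the mean of the lines in 250x301. The 2 spots of AI691686 (LOC100272873) lay at -0.06 ± 0.12 and -0.11 ± 0.13 in the same comparison. AI714808, for which the table lists the transcribed pseudogene LOC100283464, lay at -0.20 ± 0.12, AI920398 (LOC100275582) at -0.07 ± 0.12 and AI901738 (LOC100383044) at 0.00 ± 0.12. None of these last 5 values exceeded 2 standard errors.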

How the data were processed

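The authors' deposited value table holds log2 levels per spot and channel. Per the submitters' notes 1 scan per channel was chosen and normalized; how is not stated there. The authors' deposited scanner tables hold linear spot intensity (161 scans of the 14 slides) and were used as an alternative, with normexp (offset 50) and loess (span 0.3). Values of 0 (24 at 11 spots) were set missing. Values above 20 on the log2 scale (19) were kept. No column of the values was left unread (0), but the fit of all genotypes used 80 of 84 slides. Nearly identical slides were counted once there, and slides 288 and 289 were left out. The Cy3 and Cy5 medians of these lay far apart, at 10.87 and 9.392 on slide 288 and 10.88 and 9.389 on slide 289 (log2). The 66 other slides were part of these 80.

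Log2 ratios (Cy5 minus Cy3) were fitted with 3 genotype parameters and a dye effect by least squares. Variances were moderated with limma 3.58.1 in R 4.3.3 (10 residual and 6.15 prior degrees of freedom), and p-values adjusted by Benjamini-Hochberg over all tested spots. The dye effect was called at 0 spots, with 1803 at an unadjusted p under 0.05. The level beyond both lines used the larger of both one-sided p-values, doubled because either direction was allowed. Code was tested on simulated data. Named spots were the 3 of smallest p per direction, since none was called, and all spots with a symbol. Sequences were not used here. Members, lists and tests were chosen with earlier results of these data known. The p-values measure the spread between these samples, whose number limits the precision.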

Additional observations from a re-analysis of the deposited data

Results flagged for a closer look

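The 4 genotypes (5, 7, 8 and 8 samples on the family slides) were checked at 38 spots, and in their signal, for a sample far from the others. In all, 18 values from 10 samples on 7 slides stood out, in 11.5% of the groups checked. The limit flags about 1 group in 20 where groups are independent and normal. Many of these spots were picked by smallest p from the same data, and both channels of a slide share its spots. The 11.5% can therefore not be read against that share. Values are log2 levels relative to the sample's median spot.

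Slide 916 stood out most often. On it AW331062 lay at -2.09 in 301x301 (next lowest 1.01) and at -2.32 in 250x301 (next 0.77). AW331073 lay at -1.36 in 301x301 (next 2.07) and at -1.24 in 250x301 (next 1.72). In 301x301 on the same slide AI691278 was high at 1.74 (next 0.56) and BM074507 at 1.48 (next 0.43). AW331062 and AW331073 were low in both channels of that slide.

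On slide 920, AI622084 reached 7.14 in 250x250 (next 2.78) and 4.80 in 301x250 (next 2.47), which is the slide that set most of its estimate. There AI770775 was low in 301x250 at -0.65 (next 2.96) and AI939807 high at 3.23 (next 1.86). On slide 918, AI941534 stood at 2.31 in 250x250 (next 1.39) and 4.20 in 301x250 (next 1.88), and AI987507 at 4.93 in 250x250 (next 3.24).

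Single samples elsewhere were AI939807 in 301x301 on slide 57 at 2.93 (next 1.88), BE129910 in 250x301 on slide 38 at 0.45 (next -1.17) and AI901738 in 301x250 on slide 37 at -2.41 (next -0.67). In 301x250 on slide 58, whose deposited Cy3 values were closer to the other channel's scanner intensities, AI967001 stood at 1.24 (next 0.70) and AI920398 at -1.38 (next -0.40).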

How the results depend on the processing

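All settings were tried for all 9 comparisons of genotypes and for both hybrids outside the range of the lines. Of the 16 settings other than leaving out slides, 4 (all with print medians removed or with bright spots after loess) were chosen after seeing the data, as were the line samples away from the family slides and the treatments of dye labels. No spot was called in any of the 16 for 250x301 minus 301x250, for either hybrid minus 301x301 or outside the range of both lines. Shares below are percentages of the tested spots that were called. Scaling the slides to 1 spread gave 0.0338% for the lines, 0.00845% for 250x301 minus 250x250 and 0.313% for the dye effect. Bright spots alone gave 40.6% and 35.9% for the first 2, and with loess and print medians removed 0.0999% for 250x301 minus 250x250 and 0.2% for the dye effect. Slide as a random block over 51 samples (consensus correlation 0.889) gave 7.31%, 4.26% and 4.43%. All 865 spots called there for the lines had the sign of the family slides, which are among those samples, and 313 had that of the 66 other slides. For the dye effect, array weights gave 0.237%, a trend and robust prior 0.101%, the scanner intensities 0.00845% and 80 slides with all genotypes 13.7%.

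Within slides 916 to 924 (5 slides, 1 residual degree of freedom), 0.372% of spots were called for 250x301 against the mean of the lines, 1.24% for 301x250 and 1.76% for both hybrids, all lower in the hybrids. The same slides gave 0.0254% for the lines, 0.0254% for 250x301 minus 250x250, 1.06% for 301x250 minus 250x250 and 0.0845% for the dye effect. Within slides 31 to 61 (9 slides) no comparison of genotypes had a called spot. The cause of these changes was not tested. Leaving out 1 slide in turn gave 0 to 2.62% for the lines, 0 to 0.38% for the dye effect and 0 for the other comparisons of genotypes. Of the line samples away from the family slides, channel levels gave 1.82% (0.946% without slides of opposite dye labels, 1.45% with the dyes of the label field) and ratios 0, also under the 3 other treatments of the dye labels.

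The share of higher spots among those at an unadjusted p under 0.05 also moved. For 250x301 against the mean of the lines, 61.6% became 51.6% with loess and 37.4% with 80 slides. For both hybrids, 49.6% became 32.3% with loess and 66% with array weights. For 301x250 minus 250x250, 51.7% became 19.2% with loess, and for 301x250 minus 301x301, 50.4% became 67.1%. Array weights turned 24.3% for 301x250 against the mean of the lines to 45.7%.

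Of 2184 values of named and symbol spots under other settings, 2053 kept their sign and 2003 moved by less than 1 standard error. Of these values 15 were called, none of them with the opposite sign. All 6 spots named for smallest p in each comparison kept their sign throughout, so the changes of sign were at symbol spots. The former were picked from the main fit, and many settings refit the same slides with 1 left out. Their kept signs are therefore no independent check. The median rank correlation of repeated slides was 0.06 as deposited, 0.07 with loess and 0.05 with print medians removed. No paired analysis was possible because the replicate numbers of the titles are unique to each sample; the slide is the only pairing, and all main comparisons use it. Only 1001 of 11838 tested spots had a mean level above nearly all unnamed spots, and how far this limits the comparisons was not tested.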
